A study of Mus musculus with 10 samples.

Results

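The Bcl-2 family and Birc survival genes were followed at RNA polymerase II promoter peaks in mouse primary Th1 cells, a class of CD4+ T cell known for interferon gamma. The members are 10 genes chosen by symbol, of 10419 genes with an assigned promoter peak in any library: Bcl2, Bcl2l1, Mcl1, Bcl2a1a, Bcl2a1b, Bcl2a1d, Bcl2l11, Pmaip1, Birc2 and Birc3. All 10 had a peak assigned in at least 1 library, and 9 had one in all 6. Chromatin immunoprecipitation with sequencing (ChIP-seq) used the antibody 8WG16 against total RNA polymerase II, the enzyme that transcribes messenger RNA genes. All cells came from the strain Balb/c DO11.10, whose T cells carry 1 transgenic receptor, and were peripheral CD4+ cells primed in Th1 conditions, grown with an analogue of interleukin 2 and then held for 1 day without it. The groups were cells not restimulated (NR), cells given plate-bound anti-CD3 with soluble anti-CD28 for 30 min, and cells given the same for 2 h, with 2 libraries each. The labels number the libraries as replicates and name no separate animals or cultures. The p-values therefore reflect only how far these libraries differ, and part or all of that may be technical.

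Bcl-2 proteins decide whether the outer mitochondrial membrane is opened during apoptosis. Guardians such as Bcl-2, Bcl-xL (from Bcl2l1), Mcl-1 and A1 (from the Bcl2a1 genes) hold the pore formers Bax and Bak in check, and the BH3-only proteins Bim (from Bcl2l11) and Noxa (from Pmaip1) block the guardians. Birc2 and Birc3 encode cIAP1 and cIAP2, ubiquitin ligases that work downstream of TNF receptors with Traf proteins and restrain caspase-8. In T cells, Bcl2 is known for its role in resting survival, whereas A1, Bcl-xL and cIAP2 are known as products of antigen receptor and NF-kB signalling.

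The promoters of the 3 Bcl2a1 copies are shown because these genes include the single member that passed the test, and because they are so alike. The lines give the 250 bases before each start site, 5′ to 3′ on the gene's strand, from RefSeq on GRCm38.p6, at chr9:88956670-88956919 (plus strand) for Bcl2a1a, chr9:89199023-89199272 (plus strand) for Bcl2a1b and chr9:88731851-88732100 (minus strand) for Bcl2a1d. Capitals mark TGAATCA, a match to TGANTCA, the pattern searched for AP-1, in which N stands for any base.
Bcl2a1a: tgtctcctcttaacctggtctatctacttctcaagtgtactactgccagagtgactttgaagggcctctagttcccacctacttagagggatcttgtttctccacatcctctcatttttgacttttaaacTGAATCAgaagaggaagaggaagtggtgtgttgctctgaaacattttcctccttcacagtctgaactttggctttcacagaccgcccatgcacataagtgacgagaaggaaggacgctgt
Bcl2a1b: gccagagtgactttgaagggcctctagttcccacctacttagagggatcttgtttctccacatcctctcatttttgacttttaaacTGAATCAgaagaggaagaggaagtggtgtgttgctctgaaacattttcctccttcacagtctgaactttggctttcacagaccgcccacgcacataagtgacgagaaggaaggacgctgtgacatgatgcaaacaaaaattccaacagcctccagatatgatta
Bcl2a1d: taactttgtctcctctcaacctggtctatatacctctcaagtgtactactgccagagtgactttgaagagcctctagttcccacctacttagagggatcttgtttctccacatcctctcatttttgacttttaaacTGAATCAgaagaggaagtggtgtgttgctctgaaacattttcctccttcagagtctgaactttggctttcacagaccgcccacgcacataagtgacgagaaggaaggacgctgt
Over the 300 bases from 250 before to 50 after the start, Bcl2a1a and Bcl2a1b were identical at 254 of 256 aligned bases. Bcl2a1a and Bcl2a1d were identical at 288 of 294 aligned bases and Bcl2a1b and Bcl2a1d at 247 of 250, each beside a gap of 6 bases. The motif TGAATCA lay 120 bases before the start in Bcl2a1a, 164 in Bcl2a1b and 114 in Bcl2a1d. Reads from sequences this alike could be placed at the wrong copy or dropped, so values for single copies are uncertain, and the effect of read placement was not tested. Of 32851 mouse promoters of this length, 7.81% held TGANTCA on either strand, and none of the other members with a sequence did.

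Birc2 and Birc3 are neighbours on chromosome 9, transcribed in the same direction. Their promoters are shown because their peaks differed more in length in stimulated libraries than in NR cells, a difference that was not tested. They are at chr9:7837058-7837307 (Birc2) and chr9:7873171-7873420 (Birc3), both on the minus strand, again from RefSeq on GRCm38.p6. Capitals mark the cAMP response element TGACGTCA in Birc2 and, in Birc3, TTTCC, the reverse complement of the NFAT core GGAAA. The Birc2 promoter holds GGAAA too, left unmarked, so this core does not tell the pair apart.
Birc2: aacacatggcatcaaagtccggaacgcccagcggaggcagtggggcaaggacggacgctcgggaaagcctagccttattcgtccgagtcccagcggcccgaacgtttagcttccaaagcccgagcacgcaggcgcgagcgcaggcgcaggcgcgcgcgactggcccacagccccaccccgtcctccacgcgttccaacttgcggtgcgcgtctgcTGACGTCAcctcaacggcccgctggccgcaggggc
Birc3: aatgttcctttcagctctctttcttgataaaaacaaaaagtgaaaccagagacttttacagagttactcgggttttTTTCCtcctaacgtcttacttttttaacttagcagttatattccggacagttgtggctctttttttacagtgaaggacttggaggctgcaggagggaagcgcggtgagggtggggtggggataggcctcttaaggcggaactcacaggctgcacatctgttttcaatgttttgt
TGACGTCA began 35 bases before the Birc2 start and was present in 1.79% of all promoters, and Birc2 was the only member with it. The short core GGAAA was in 61.3% of all promoters and in 8 of the 9 members with a sequence, all but Bcl2l11. TATAAA was in 13.6% of promoters and in no member, and the NF-kB consensus was in 8.46% and, among members, in Bcl2l1 alone. The motifs were searched on both strands of the 300 bases, and no 2 of those marked in capitals overlap in 1 promoter. A match is only a stretch of letters and no match says nothing about a factor. The GC content of the 300 bases was 44.7%, 46.7% and 44.3% in Bcl2a1a, Bcl2a1b and Bcl2a1d and 43.0% in Birc3, against a median of 52.7% over all promoters. It was 76.0% in Bcl2, 71.0% in Bcl2l11, 67.0% in Birc2, 65.7% in Mcl1 and 55.7% in Bcl2l1. The 4 promoters of lower GC content held 3 to 7 CpG dinucleotides and the 5 others 14 to 44.

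The deposited lists give peaks, not reads, so the value compared was the length of promoter DNA called as a peak and assigned by the authors to the gene, summed per library (called length). The 6 libraries held between 9074 and 10680 promoter peaks. Depth, taken here as the median coverage at a promoter summit, differed between libraries. It was 18, 28 and 56 reads in replicates 1 of NR, 30 min and 2 h. In replicates 2 it was 143, 172 and 171 reads. No total read counts are given, and coverage at a summit also reflects enrichment. Replicate 2 was both deeper and, for most members, longer than replicate 1 of its group. Median peak width ranged from 692 to 1229 bp across libraries, and the median gene gained 0.16 at 30 min and 0.48 at 2 h over NR on the log2 scale. Log2 changes below are relative to this shift. All 6 T cell markers fixed for the check had a promoter peak in every library and 3 or 4 of 4 Th1 markers did, while 0 of 5 B cell and 0 of 5 myeloid markers had one in any library. Cd8b1 had a peak in the 3 deeper libraries, and Cd8a in none. In bulk samples, fewer cells with polymerase at a gene and less polymerase per cell cannot be told apart.

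Among the guardians, Bcl2 (mm10 chromosome 1, 106538176 to 106714290, minus strand) had the longest called DNA in NR cells, 5598 and 5106 bp in replicates 1 and 2. It had 6427 and 12136 bp at 30 min and 9804 and 11023 bp at 2 h. Both stimulated groups lay above both NR libraries, and the 30 min libraries differed from each other by more than the lower one differed from NR. The log2 change was 0.55 ± 0.27 (SE) at 30 min and 0.47 ± 0.27 at 2 h, limma adjusted p = 0.697 and 0.518. With quantile normalization these became -0.02 and -0.01, so the positive sign of Bcl2 did not hold under every normalization.

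Bcl2l1 (chromosome 2, 152758732 to 152830717, minus strand), the Bcl-xL gene, had 2654 and 3267 bp under NR conditions, 3300 and 8394 bp at 30 min, and 8531 and 13017 bp at 2 h. The libraries fell in the order of time with no overlap, although 30 min replicate 1 was barely above NR replicate 2. The change was 0.66 ± 0.26 at 30 min (limma adjusted p = 0.616) and 1.33 ± 0.26 at 2 h (limma adjusted p = 0.147), so neither passed. The peak at the start site reached 931 and 2204 bp past it in NR cells, where replicate 1 had a second, separate peak from 1650 to 2272 bp. It reached 7380 and 11773 bp at 2 h.

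Mcl1 (chromosome 3, 95658721 to 95663178, plus strand) encodes a short-lived guardian that T cells need throughout life. Its called length was 3175 and 3883 bp under NR conditions, 8265 and 14108 bp at 30 min, and 13016 and 13555 bp at 2 h. Every stimulated library was at least 2.13 times the higher NR library. The log2 change was 1.43 ± 0.23 at 30 min (limma adjusted p = 0.134) and 1.41 ± 0.23 at 2 h (limma adjusted p = 0.0994), and neither passed. In NR libraries the peak reached 2701 and 2964 bp past the start and ended inside the gene. In the 4 stimulated libraries it ran 2705 and 7609 bp (30 min) and 7100 and 7167 bp (2 h) past the gene's end, where no other RefSeq gene lies under it. Peak DNA was also measured only within the RefSeq span of 6236 bp and 1000 bp on each side. The change was then 0.83 at 30 min and 0.53 at 2 h (limma adjusted p = 0.500 and 0.484). This window caps the length, and the stimulated libraries had 6560 and 7499 bp in it at 30 min and 6916 and 7388 bp at 2 h. The summit, the point of highest signal, stayed 9 to 118 bp past the start site in all 6 libraries.

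Bcl2a1b (chromosome 9, 89199273 to 89207838, plus strand), an A1 gene, was the only member that passed the test. Called length was 1198 and 1518 bp under NR conditions, 3051 and 5865 bp at 30 min, and 6537 and 6567 bp at 2 h. The 3 groups did not overlap, and the 2 h libraries were nearly equal. At 2 h it was longer by 1.72 ± 0.15 on the log2 scale (limma adjusted p = 0.0219), which is 4.82-fold between the mean lengths before centring. At 30 min the change was 1.42 ± 0.15 and missed the threshold (limma adjusted p = 0.0534). The call at 2 h was lost without NR replicate 1 (adjusted p = 0.193), NR replicate 2 (0.0827), 2 h replicate 1 (0.182) or 2 h replicate 2 (0.153). It was also lost with the replicate number as a block (limma adjusted p = 0.0508), with a change of 1.72 as before. The peak reached 355 and 422 bp past the start in NR cells, 1510 and 4070 bp at 30 min, and 4988 and 4822 bp at 2 h, in a gene of 8566 bp. The summit was 46 and 60 bp before the start in NR cells and 17 to 106 bp after it in the 4 stimulated libraries.

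Bcl2a1d (chromosome 9, 88723288 to 88731850, minus strand) had 1431 and 1276 bp under NR conditions, 1271 and 2252 bp at 30 min, and 4150 and 4698 bp at 2 h. The 30 min and NR libraries overlapped, whereas both 2 h libraries lay above all others. The change was 0.15 ± 0.19 at 30 min (limma adjusted p = 0.862), 1.16 ± 0.19 at 2 h against NR (limma adjusted p = 0.0983) and 1.01 ± 0.19 at 2 h against 30 min (limma adjusted p = 0.451), so none passed. Without NR replicate 2 the 30 min change was -0.09. The called length of Bcl2a1b divided by that of Bcl2a1d was 0.84 and 1.19 in NR cells, 2.40 and 2.60 at 30 min, and 1.58 and 1.40 at 2 h. That ratio was highest in both 30 min libraries, a description of 1 pair of copies that was not tested. The Bcl2a1d span and its peaks overlap the RefSeq gene Gm10634, and ChIP-seq carries no strand.

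Bcl2a1a (chromosome 9, 88956920 to 88962416, plus strand) had no listed peak in NR replicate 1 or 2. It had 243 and 328 bp at 30 min and 571 and 335 bp at 2 h. These are the shortest values of any member, and its peaks ranked at 87.7% and 88.3% of the list by fold enrichment at 30 min and 41.1% and 88.9% at 2 h, where 0% is the strongest. A peak in both libraries of a group and neither NR library was gained by 0.374% of genes at 30 min and 2.57% at 2 h, and Bcl2a1a was the 1 member in both counts. Having no peak in NR cells, it entered the fit only through its stimulated libraries, so its change of 1.78 at 30 min (limma adjusted p = 0.641) and 1.96 at 2 h (limma adjusted p = 0.376) depends on the 100 bp added before the log. With each list held to the 9074 strongest peaks, no member gained a peak at either time.

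**Figure D1:**
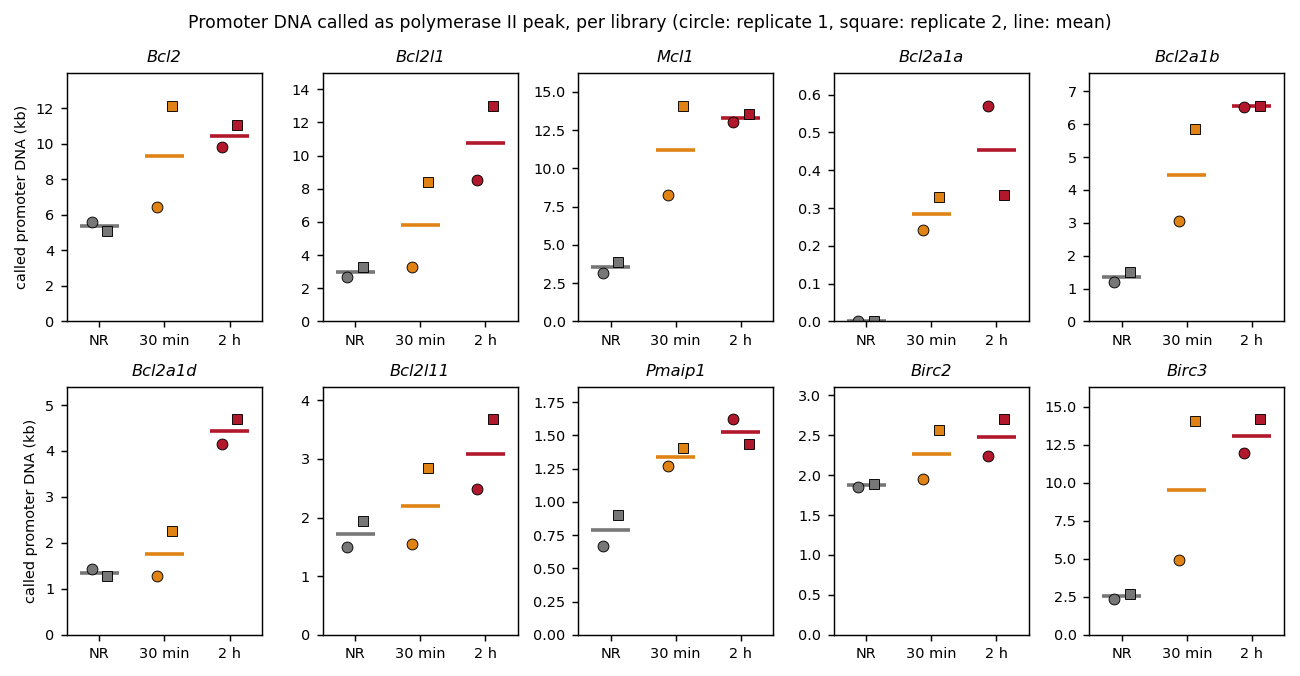
Called promoter DNA in kb (vertical axis, from 0, own scale for each gene) by group for the 10 members, with circles for replicate 1, squares for replicate 2 and lines for the mean of 2. At 2 h both libraries lie above both NR libraries in all 10 panels, as in 52.3% of all genes. At 30 min the replicates of Bcl2, Bcl2l1, Mcl1, Bcl2a1b and Birc3, among others, lie far apart.

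Of the BH3-only genes, neither passed the test. Bcl2l11 (chromosome 2, 128126038 to 128162547, plus strand), the Bim gene, had 1499 and 1933 bp under NR conditions, 1552 and 2840 bp at 30 min, and 2490 and 3682 bp at 2 h. The NR and 30 min libraries overlapped. The change was 0.13 ± 0.15 at 30 min (-0.04 with quantile normalization) and 0.32 ± 0.15 at 2 h, limma adjusted p = 0.841 and 0.456. In NR replicates 1 and 2 and 30 min replicate 1, Bcl2l11 had 2 separate peaks, with summits 23 to 160 bp and 1366 to 1658 bp past the start. In the other 3 libraries they were joined into 1 peak whose summit lay 14 to 44 bp past the start. The gene Acoxl overlaps Bcl2l11 there.

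Pmaip1 (chromosome 18, 66458604 to 66465558, plus strand), the Noxa gene, had 667 and 902 bp under NR conditions, 1268 and 1408 bp at 30 min, and 1624 and 1434 bp at 2 h. The stimulated libraries lay above both NR libraries, and the 2 h libraries just above the 30 min ones. The change was 0.55 ± 0.27 at 30 min and 0.41 ± 0.27 at 2 h, limma adjusted p = 0.70 and 0.562. At 2 h against 30 min it was -0.14, or 0.18 without centring.

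Birc2 (chromosome 9, 7818226 to 7837131, minus strand), the cIAP1 gene, had 1853 and 1890 bp under NR conditions, 1957 and 2566 bp at 30 min, and 2244 and 2705 bp at 2 h. In a gene of 18906 bp, its peak reached 744 and 791 bp past the start in NR cells. It reached 920 and 964 bp at 30 min, and 1131 and 1089 bp at 2 h. The change relative to the median gene was 0.09 ± 0.19 at 30 min (-0.08 with quantile normalization) and -0.10 ± 0.19 at 2 h (0.38 without centring), limma adjusted p = 0.965 and 0.854.

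Birc3 (chromosome 9, 7847468 to 7873205, minus strand), the cIAP2 gene, had 2370 and 2701 bp under NR conditions, 4949 and 14040 bp at 30 min, and 11957 and 14198 bp at 2 h. The stimulated libraries lay above both NR libraries, and 30 min replicate 2 reached the 2 h range while replicate 1 did not. The change was 1.52 ± 0.29 at 30 min (limma adjusted p = 0.200) and 1.84 ± 0.29 at 2 h (limma adjusted p = 0.0916). Neither passed, though the 2 h change passed without 30 min replicate 1 (limma adjusted p = 0.0411) or 30 min replicate 2 (limma adjusted p = 0.0238). Without NR replicate 1, NR replicate 2, 2 h replicate 1 or 2 h replicate 2 its limma adjusted p was 0.411, 0.191, 0.473 or 0.45. The peak ran 1788 and 2344 bp into the gene in NR cells, 4080 and 13141 bp at 30 min, and 10896 and 13197 bp at 2 h, in a gene of 25738 bp. The called length of Birc3 was 1.28 and 1.43 times that of its neighbour Birc2 in NR cells, 2.53 and 5.47 times at 30 min, and 5.33 and 5.25 times at 2 h. This ratio between the neighbours was not tested.

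**Figure D2:**
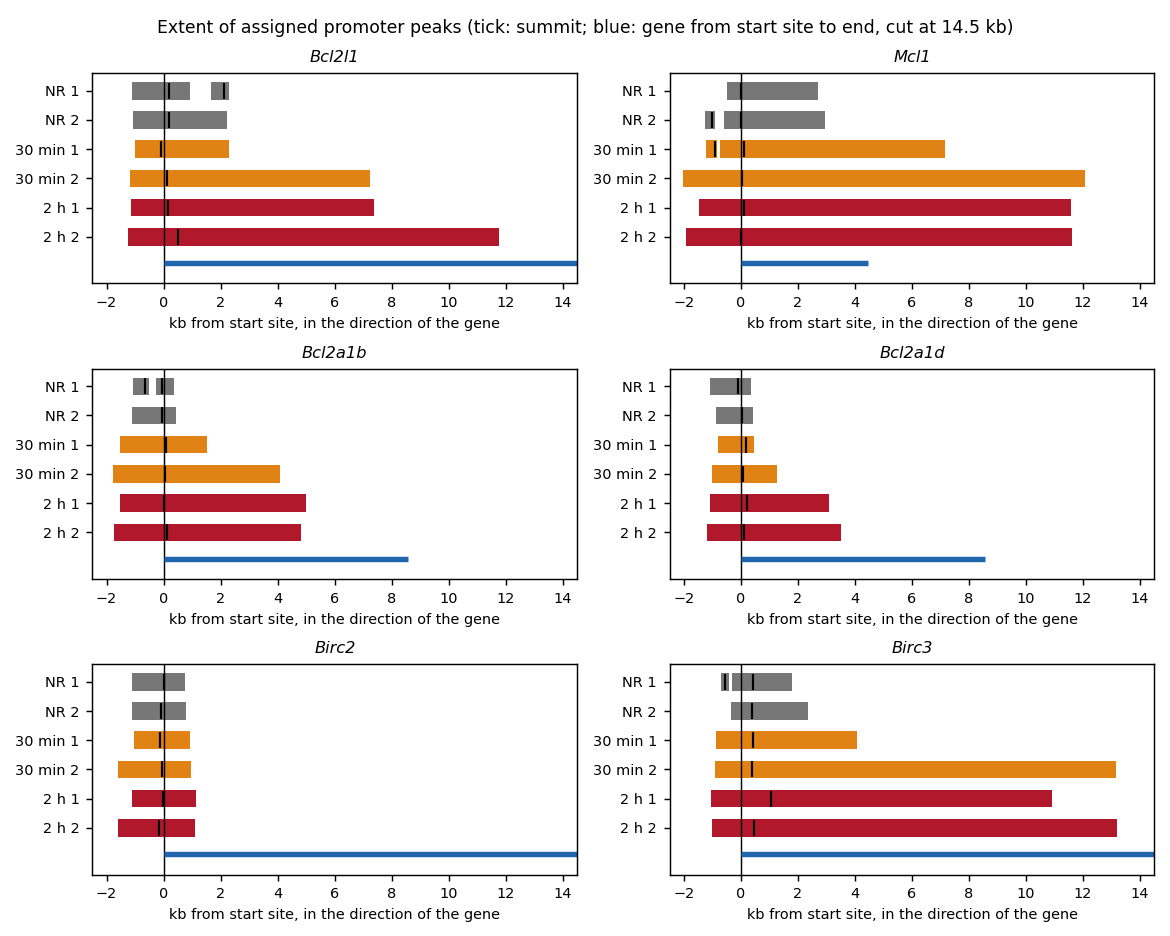
Extent of the assigned promoter peaks of 6 members in each library, in kb from the start site in the direction of the gene (horizontal axis), with 1 row per library, grey for NR, orange for 30 min and red for 2 h, a black tick at each summit and a blue line for the gene. Peaks of Birc3, Mcl1, Bcl2l1 and Bcl2a1b extend farther downstream in stimulated libraries, though Bcl2l1 in 30 min replicate 1 reaches barely past NR replicate 2 (2280 against 2204 bp). The summits of their highest peaks lie at most 518 bp from the start, except that of Birc3 in 2 h replicate 1 (1065 bp). Birc2 peaks reach 744 and 791 bp past the start in NR cells and 1131 and 1089 bp at 2 h.

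Set against all genes, 0 members were called longer at 30 min, where limma called 0.232% of 9908 genes, and 1 at 2 h, where it called 0.373%. At 2 h against 30 min 0 members were called longer, against 0.0% of genes. At an unadjusted p under 0.05 limma gave 4, 6 and 2 members in these comparisons (4, 5 and 2 without Bcl2a1a), and 793, 1249 and 513 genes. Both libraries lay above both NR libraries in 8 members at 30 min, where 11.5% of genes did so, and in 10 at 2 h, where 52.3% did. Bcl2a1a, with no NR peak, had to meet this, and without it the counts were 7 and 9 of 9. At 2 h the members' count thus has a high background. Both 2 h libraries lay above both 30 min libraries in 5 members and in 17.0% of genes. The members' median log2 change was 0.61 at 30 min and 1.24 at 2 h over all 10, and 0.55 and 1.16 over the 9 with a peak in every library, beside -0.04 and -0.03 over all genes tested. Members were positive in 10 of 10 at 30 min (7 with quantile normalization) and 9 of 10 at 2 h (8 with quantile normalization, 10 without centring). Without Bcl2a1a, which had no NR peak, the counts in the main fit were 9 and 8 of 9. The comparisons with NR share their NR libraries. With 2 libraries against 2, no permutation can give a p under 0.33.

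NR replicate 2 had more reads at its summits than replicates 1 of both stimulated groups. All 10 members were longer in 2 h replicate 1 than in NR replicate 2, as were 55.2% of genes. Bcl2a1a, with no peak in NR replicate 2, had to count as longer here and in 30 min replicate 1 once it had any peak. In 30 min replicate 1, 8 members were longer than in NR replicate 2, as were 13.7% of genes, and the exceptions were Bcl2a1d and Bcl2l11. Mcl1 measured 8265 against 3883 bp in that pair, Bcl2a1b 3051 against 1518 bp and Birc3 4949 against 2701 bp. Bcl2l1 had 3300 against 3267 bp and Birc2 1957 against 1890 bp. These are single libraries with no replicate check, and the part of depth in the members' lengths was not tested.

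**Figure D3:**
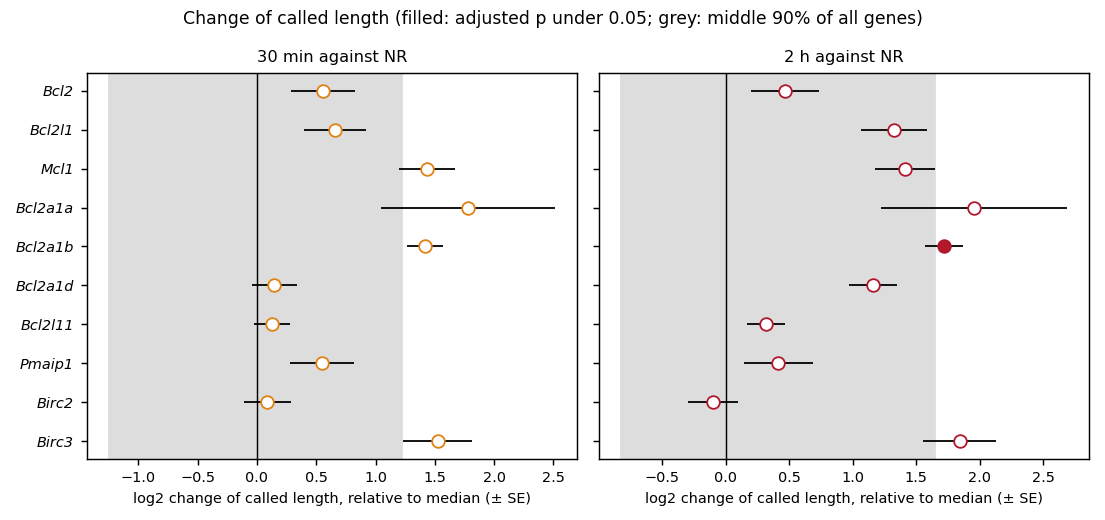
Log2 change of called length relative to the median gene (horizontal axis, ± SE from limma, 6 libraries) for the 10 members at 30 min and 2 h against NR, with a filled point where the adjusted p is under 0.05 and a grey band for the middle 90% of 9908 genes. Only Bcl2a1b at 2 h is filled, and Bcl2, Bcl2l1, Bcl2a1d, Bcl2l11, Pmaip1 and Birc2 lie inside the band at both times, as does Mcl1 at 2 h.

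Ranks of peak strength within a library told the members apart in another way. The fold enrichment and its rank are the authors' values for a peak within its own list, and ranks from lists of different lengths show no change. Mcl1 was in the top 5.55% of promoter peaks in every library, at rank 119 of 9360 and 112 of 10383 in NR cells. Bcl2l11 was in the top 14.1% in every library. Birc3 ranked 3758 and 4315 in NR cells, 986 and 2658 at 30 min, and 82 and 4350 at 2 h, so the 2 h libraries placed it at opposite ends of its range. Bcl2a1d ranked 5930 and 8046 in NR cells, 2277 and 4685 at 30 min, and 301 and 1506 at 2 h. Bcl2a1b ranked 6888 and 5771, then 4062 and 4127, then 2317 and 2999.

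**Figure D4:**
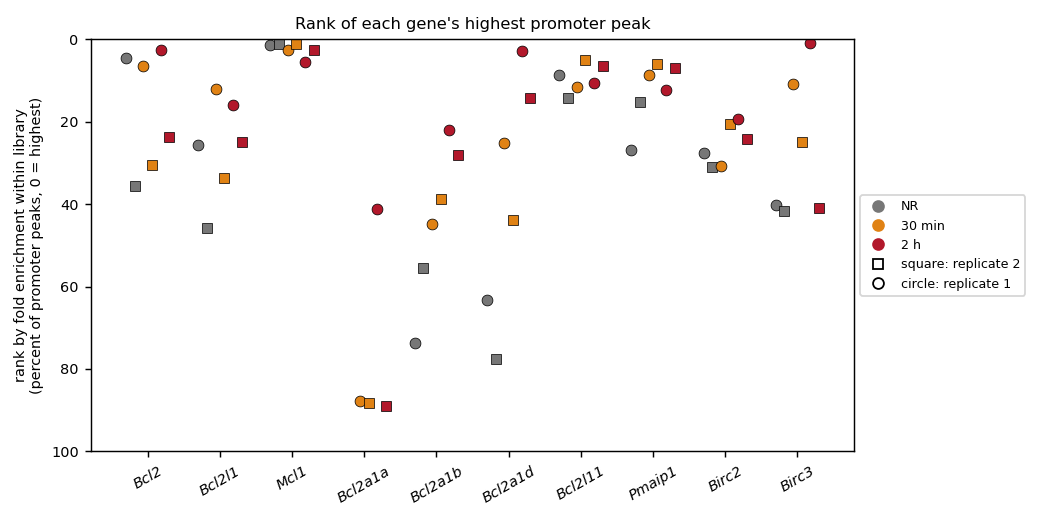
Rank of each member's highest promoter peak by the authors' fold enrichment, as a percent of the promoter peaks of the same library (vertical axis, 0 at the top is the strongest), with circles for replicates 1, squares for replicates 2, and grey, orange and red for NR, 30 min and 2 h. Mcl1 stays near the top in all 6 libraries and Bcl2a1a, which has no point in NR, near the bottom in 3 of 4.

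Bcl2 and Bcl2l1 are long genes with polymerase summits far inside them. In Bcl2, a summit 112735 to 112826 bp from the start was present in all 6 libraries, and its −log10 q was 62.5 and 94.4 in NR cells, 60.1 and 278 at 30 min, and 149 and 250 at 2 h. Within each list it ranked between 633 of 19888 and 3825 of 17627 summits. A second place in Bcl2, 143649 to 143867 bp from the start, was also occupied in all 6. Its −log10 q was 5.23 and 3.65 in NR cells, 8.66 and 29.6 at 30 min, and 34.8 and 56.6 at 2 h. In NR cells it ranked low, at 13395 of 19888 and 16840 of 17627 summits. In Bcl2l1 a summit 40903 to 40953 bp from the start and another 20301 to 20589 bp from it were in all 6 libraries. The first ranked between 1725 of 15330 and 7904 of 20086 summits, and the other between 9257 of 23299 and 12128 of 15330. All 4 places were thus already called in both NR libraries.

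**Figure D5:**
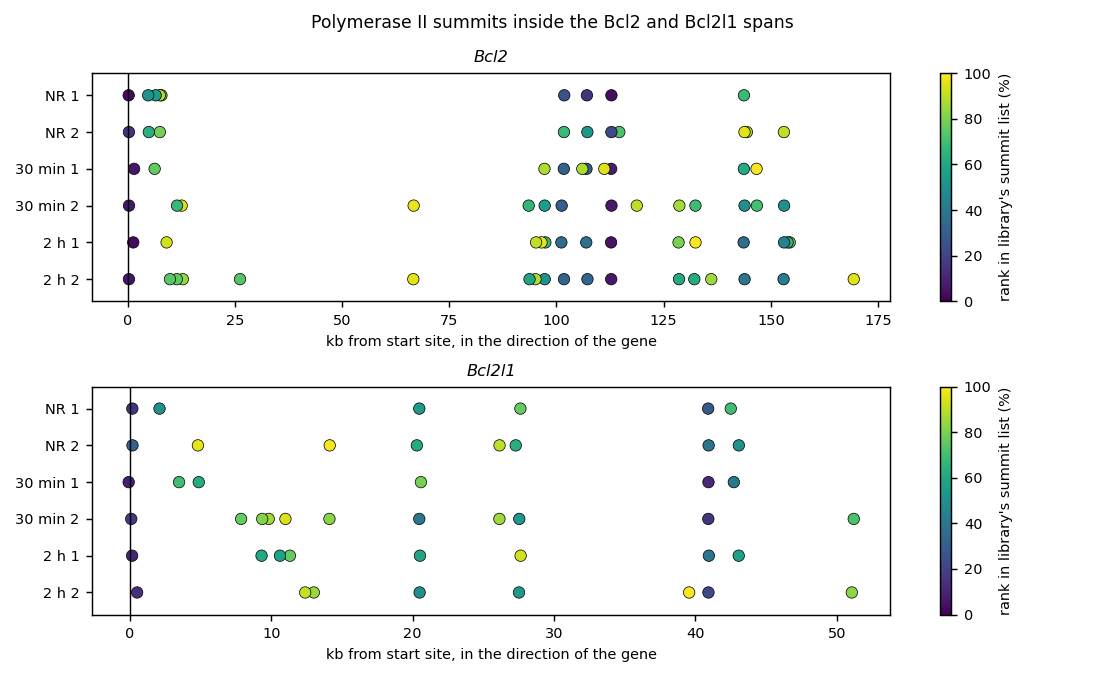
Polymerase summits inside Bcl2 and Bcl2l1, by distance from the start site in kb (horizontal axis) and library (rows), coloured by rank within that library's summit list in percent, dark for the strongest. Columns of points near 113 and 144 kb in Bcl2 and near 20 and 41 kb in Bcl2l1 hold a point in all 6 libraries.

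Other genes of the pathway came from 3 lists, and limma called 0 of their genes at 30 min, at 2 h or between them. Of 18 other Bcl-2 family genes, 9 were tested, and their median log2 change at 2 h was -0.20. The largest changes at 2 h were those of Bid, which links death receptors to mitochondria, at 0.81 (limma adjusted p = 0.240), and Bbc3, the Puma gene, at 0.59, and the smallest was that of the pore former Bak1 at -0.38. Of 16 other Birc genes and regulators of the cIAPs, 10 were tested, with a median of 0.20. Traf1, an adaptor that binds cIAPs, was at 1.46 (limma adjusted p = 0.231) and Traf3, which brings cIAPs to the kinase Map3k14, at 1.30 (limma adjusted p = 0.0808), while Birc5, the survivin gene, was at -0.46. Traf3 had 471 and 453 bp under NR conditions, 1184 and 2187 bp at 30 min, and 1779 and 1868 bp at 2 h, with both stimulated groups above NR. Of 14 caspase and death receptor genes, 13 were tested, with a median of 0.32. Fasl, the death receptor ligand, was at 1.53 (limma adjusted p = 0.413), its receptor gene Fas at 1.50 (limma adjusted p = 0.0853), and Apaf1, the apoptosome scaffold, at -0.79. Fas had 460 and 646 bp under NR conditions, 435 and 936 bp at 30 min, and 1875 and 3173 bp at 2 h, so it stood apart from NR at 2 h alone.

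Birc3 had the widest range of group means, 1.84 on the log2 scale, among the 9 members with a peak in all 6 libraries. Among 7410 genes with a peak in every library, the 3 with the most similar profile, by Euclidean distance between centred log2 profiles over 6 libraries, were Rps23, a ribosomal protein gene (distance 0.21), Sh2d2a, a T cell adaptor gene (0.22), and Asb2 (0.33). Sh2d2a had 2293 and 2283 bp under NR conditions, 4609 and 12812 bp at 30 min, and 11362 and 11545 bp at 2 h. Like Birc3, it was near its 2 h length in 30 min replicate 2 and well below it in replicate 1. This likeness follows from how Sh2d2a was chosen and is no separate result. The 6 libraries also differ in depth, which these profiles share.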

How the data were processed

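Per the labels, RNA polymerase II ChIP-seq peaks were called separately in each of 6 libraries. The submitters' processing notes list BWA 0.7.13, Picard 1.119, MACS2 2.1.0 and mm10 as the build, with no role or order. Per the file headers, the deposited tables give each promoter peak's start, end and width, its signal (the pileup, or coverage, at its summit), its fold enrichment (a ratio to background) and the −log10 of its p-value and q-value. Every promoter peak in them is assigned by the authors to 1 gene, within 1000 bp of the start of any of its transcripts, so it can lie farther from the 1 start site used here per gene. The smallest −log10 q was 1.31. Replicates 1 hold whole-number pileups, and replicates 2 hold multiples of a fixed step, by which they were divided to give reads at the summit.

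Called length per gene was taken as log2(bp + 100) and centred on each library's median over the 7410 genes with a peak in all 6. The fit held the 9908 of 10419 genes called in 2 or more libraries, all 10 members among them. limma 3.58.1 in R 4.3.3 (lmFit, eBayes with trend) was fitted over all 6 libraries with group alone, and Benjamini-Hochberg adjusted p under 0.05 was called. It was tested on simulated data made from genes with a peak in all 6 libraries, with the same spread for every gene and no difference in depth. The real libraries differ in depth, so the simulation cannot show how the fit performs on them. Summits within 500 bp were taken as 1 place. Gene spans and promoters came from RefSeq (GRCm38.p6). 9 of 10 members matched a promoter. The rule named all 10 members, the called genes of each list or else its 2 largest and 1 smallest change at 2 h, and the 3 genes nearest to the member of widest range. The members, lists and tests were chosen with earlier results of these data known. The 16 alternatives changed the offset, centring, filter, peak threshold, list length, assignment, measure and libraries. The 3 H3K36me3 libraries and 1 input library were not analysed here.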

Additional observations from a re-analysis of the deposited data

Results flagged for a closer look

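The lists of all summits hold summits inside the members' spans that belong to no promoter peak, and 4 members had more of them in both libraries of a stimulated group than in either NR library. Bcl2 had at least 13 such summits at 2 h, against at most 9 in NR cells. Bcl2a1b had at least 1 at 30 min and at least 1 at 2 h, against 0 in both NR libraries. Bcl2a1d had at least 1 at 2 h, against 0 in NR cells. Bcl2l11, whose span overlaps Acoxl, had at least 3 at 2 h, against at most 1 in NR cells. Of 9497 tested genes with a single RefSeq span, 2.61% met the same criterion at 30 min and 7.61% at 2 h, and long genes offer more room for summits. The libraries differ in depth, whose part in these counts was not tested.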

How the results depend on the processing

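Each of the 10 members' changes was recomputed under 16 alternatives. At 2 h against NR the count of members called longer was 1 and became 3 with 1000 bp added before the log (Mcl1, Bcl2a1b and Bcl2a1d) and 2 with only the 4 libraries compared (Bcl2a1b and Birc3). It became 0 without centring, with peaks of −log10 q of at least 5, by number of summits, and with a replicate block. Leaving out 1 library gave 0 to 2 members at 2 h and 0 to 1 at 30 min, and a comparison left with a lone library assumes it varies like the others. At 2 h against 30 min no alternative called a member. Deviations of same-numbered libraries correlated at 0.44, 0.27 and 0.41 for 30 min against NR, 2 h against NR and 2 h against 30 min, but with 2 numbers the libraries share only a number, and depth follows it too. The 1 gain of a peak (Bcl2a1a) became 0 at 30 min with peaks of −log10 q of at least 5, and 0 at both times with lists of equal length. Over all genes, the count called longer ranged from 4 to 64 at 30 min, from 3 to 147 at 2 h and from 0 to 181 at 2 h against 30 min, and the count called shorter from 0 to 175, 0 to 41 and 0 to 30. At 30 min 175 were shorter and 52 longer without 30 min replicate 2.

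Signs turned mainly where the change was near 0, and the cause was not tested. At 30 min, quantile normalization gave -0.0207 for Bcl2, -0.0374 for Bcl2l11 and -0.0831 for Birc2, and by position Birc2 was -0.0418. At 2 h, it gave -0.0073 for Bcl2, and Birc2 was 0.3793 without centring. Counting summits gave -0.7075 for Mcl1 at 30 min and at 2 h, 0.5 for Birc2 and -0.5 for Birc3 at 2 h. A joined peak has 1 summit, so this measure falls as peaks merge. At 2 h against 30 min, Bcl2 became 0.03 with 1000 bp added, 0.232 without centring, 0.0134 with quantile normalization and 0.3942 by summits. Mcl1 became 0.0952, 0.2958 and 0.1327 under the first 3 of these and 0.0208 with stricter peaks. Bcl2a1a became -0.0038 with 1000 bp added. Without centring Pmaip1 became 0.1792 and Birc2 0.1309, and by summits Bcl2l1 became -0.0262, Birc2 0.5 and Birc3 -0.7075. Leaving out 1 library gave, at 30 min, -0.0947 to 0.3885 for Bcl2a1d and -0.1141 to 0.2941 for Birc2, and at 2 h -0.249 to 0.0514 for Birc2. At 2 h against 30 min it gave -0.1079 to 0.0664 for Mcl1, -0.2496 to 0.6081 for Bcl2a1a, -0.4601 to 0.1896 for Pmaip1, -0.3917 to 0.0245 for Birc2 and -0.0263 to 0.6692 for Birc3.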
